A study of Mus musculus with 2 samples.

Results

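Described here are 10 myeloid C-type lectin receptor genes of the mouse (Clec4d, Clec4e, Clec4n, Clec4a1, Clec4a2, Clec4a3, Clec7a, Clec10a, Clec12a and Mrc1), followed across the cells of a treated breast tumour. They were listed by symbol, and all 10 were found among the 33696 genes of the deposited table, of which 24677 had at least 1 UMI in the kept cells. The tumours were grown under the skin from 4T1 cells, a mouse mammary carcinoma line, in mice labelled wild type (WT). The series has 1 single-cell library of tumours from mice given PBS (control) and 1 of tumours from mice given an agent that the labels name PCN and the series title PATCH. The labels state neither the number, age or strain of the animals nor whether tumours were pooled. Every value below is from the treated library. The control library's counts were not used here, and treated tumours are not compared with control ones. With 1 library there is no replicate spread and no test, and every interval covers counting error only.

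C-type lectin receptors are surface proteins of phagocytes that bind sugars on microbes and on damaged or altered host cells. Clec4d, Clec4e and Clec4n reach the kinase Syk through the adaptor chain encoded by Fcer1g, and Clec7a reaches it through its own cytoplasmic tail, after which Card9, Bcl10 and Malt1 carry the signal to NF-kB. Clec4a2 and Clec12a carry inhibitory tails that recruit phosphatases, while Mrc1 and Clec10a chiefly take up glycoproteins, and both are widely used as markers of alternatively activated macrophages.

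Of the 10 genes, 8 lie on chromosome 6, with Clec10a on chromosome 11 and Mrc1 on chromosome 2. In the RefSeq order of protein-coding genes Clec4n, Clec4d and Clec4e stand next to each other, as do Clec4a1 and Clec4a3, and Clec7a stands next to Olr1, another lectin-like receptor gene. Promoter sequence was matched for 8 of the 10 genes in RefSeq, build GRCm38.p6. The 250 bases before the start site are shown for 2 pairs: the adjacent genes Clec4d and Clec4e, which were both highest in neutrophils, and Clec4a2 and Clec12a, which were both highest in a small population with high Ctsk and Acp5. Capitals mark matches, on either strand, to a C/EBP motif (TTGCNNAA), a PU.1 motif (GAGGAA) or an AP-1 motif (TGANTCA). C/EBP and PU.1 are transcription factors of myeloid cells, and AP-1 is a factor of activated cells.
Clec4d, chr6:123261857-123262106, plus strand: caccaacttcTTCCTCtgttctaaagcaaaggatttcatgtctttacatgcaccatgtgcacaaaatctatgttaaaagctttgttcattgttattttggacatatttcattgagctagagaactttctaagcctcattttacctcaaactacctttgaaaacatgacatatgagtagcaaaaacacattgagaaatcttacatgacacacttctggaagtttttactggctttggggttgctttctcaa
Clec4e, chr6:123289872-123290121, minus strand: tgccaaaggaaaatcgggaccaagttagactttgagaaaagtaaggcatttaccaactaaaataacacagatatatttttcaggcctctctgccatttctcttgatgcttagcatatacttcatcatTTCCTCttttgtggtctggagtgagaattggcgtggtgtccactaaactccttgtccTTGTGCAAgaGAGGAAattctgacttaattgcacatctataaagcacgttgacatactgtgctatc
Clec4a2, chr6:123122440-123122689, plus strand: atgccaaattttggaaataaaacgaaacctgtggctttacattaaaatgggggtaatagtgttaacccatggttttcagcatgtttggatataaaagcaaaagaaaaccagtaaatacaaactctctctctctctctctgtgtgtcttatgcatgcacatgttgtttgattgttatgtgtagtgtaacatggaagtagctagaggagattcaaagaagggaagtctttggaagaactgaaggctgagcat
Clec12a, chr6:129349994-129350243, plus strand: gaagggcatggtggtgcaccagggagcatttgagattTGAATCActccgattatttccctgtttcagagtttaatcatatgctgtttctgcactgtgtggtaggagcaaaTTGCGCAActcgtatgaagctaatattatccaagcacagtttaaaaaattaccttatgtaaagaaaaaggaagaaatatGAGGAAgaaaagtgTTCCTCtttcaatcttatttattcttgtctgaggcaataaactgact
The 8 genes had 10 such windows, since Clec4a3 and Clec7a had 2 each, and a gene was counted when any of its windows matched, while the background is the share of single promoters. The C/EBP letters were found in 2 of the 8 genes, Clec4e and Clec12a, and in 9.56% of 32851 promoters of this length. The PU.1 letters were found in 7 of 8 genes and in 23.3% of promoters; they were in neither the Clec4a2 window nor 1 of the 2 Clec4a3 windows. Of the 8 genes Clec12a alone held the AP-1 letters, which are in 6.75% of promoters. An NF-kB motif (GGG and TTTCC with any 2 bases between them), present in 1.41% of promoters, was found in 0 of 8. Within each printed pair the promoters differed: Clec4e held C/EBP and PU.1 letters and Clec4d those of PU.1 only, while Clec12a held the C/EBP, PU.1 and AP-1 letters and Clec4a2 held 0 of the 4 motifs. These matches describe letters in a window and are not measured binding sites.

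The treated library held 12309 barcodes and 96873409 UMIs (unique molecular identifiers, 1 per captured transcript). The authors kept 10835 of these barcodes as cells, with 60652188 UMIs and a median of 3575 UMIs per cell. The kept lists of the 2 libraries shared 33 barcodes. Each kept cell was placed in the first of 5 groups whose rule it met. Neutrophils (3518 cells, 32.5% of the kept cells) had at least 2% of their UMIs in S100a8, S100a9, Csf3r and G0s2. Monocytes (1488 cells, 13.7%) had at least 5 UMIs of Ccr2, Vcan, Plac8 and Ly6c2 and under 0.1% in the C1q genes. Resident-like macrophages (1014 cells, 9.36%) had at least 3 UMIs of Cd163, Folr2 and Lyve1. Other macrophages (2821 cells, 26.0%) had at least 0.3% in C1qa, C1qb, Csf1r, Apoe and Lyz2, and 1994 other kept cells (18.4%) met none of these rules. None of the receptor genes was used to form the groups.

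The group names were checked against genes that the rule did not use. Of 5 neutrophil markers, 4 were highest in the neutrophil group. Of 5 markers each, 4 were highest in resident-like macrophages (Timd4, a marker of long-lived tissue macrophages, was not), 2 in monocytes and 1 in other macrophages. The macrophage genes Adgre1, Mertk, Cd68 and Trem2 were higher in the resident-like group than in the group called other macrophages, whose name therefore stands only for its rule. The monocyte group was mixed: 238 of its cells, 16.0%, carried at least 5 UMIs of the fibroblast collagen and decorin genes, and Vcan of the rule is itself made by fibroblasts. Those 238 cells had little of the receptors (Clec4e 28.5 CPM, Mrc1 16.7 CPM, Clec12a 1.39 CPM). Monocyte values are therefore also given for the 1115 monocytes without markers of T, B, dendritic, tumour epithelial, fibroblast or endothelial cells, called cleaned monocytes below, a subset chosen after the group had been seen. Their fibroblast genes summed to 107.6 CPM, against 12374 CPM in the whole monocyte group.

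Levels are UMIs per 1000000 UMIs of a group (CPM), with the 95% exact Poisson interval in brackets. Of the 10 genes, 3 were highest in neutrophils, 2 in monocytes, 2 in resident-like macrophages, 2 in other macrophages and 1 in other kept cells. The lead of neutrophils for Clec7a and of other macrophages for Clec4a2 did not exceed counting error. No share of all genes is set beside these counts, so they describe an order and are not a result about the receptors as a set. The neutrophils held 56.9% of all Clec4e UMIs of the kept cells and 39.3% of the Clec4d UMIs. The resident-like macrophages, 9.36% of the cells, held 58.2% of the Clec10a UMIs and 45.1% of the Mrc1 UMIs. The other macrophages held 59.4% of the Clec4n UMIs.

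**Figure D1:**
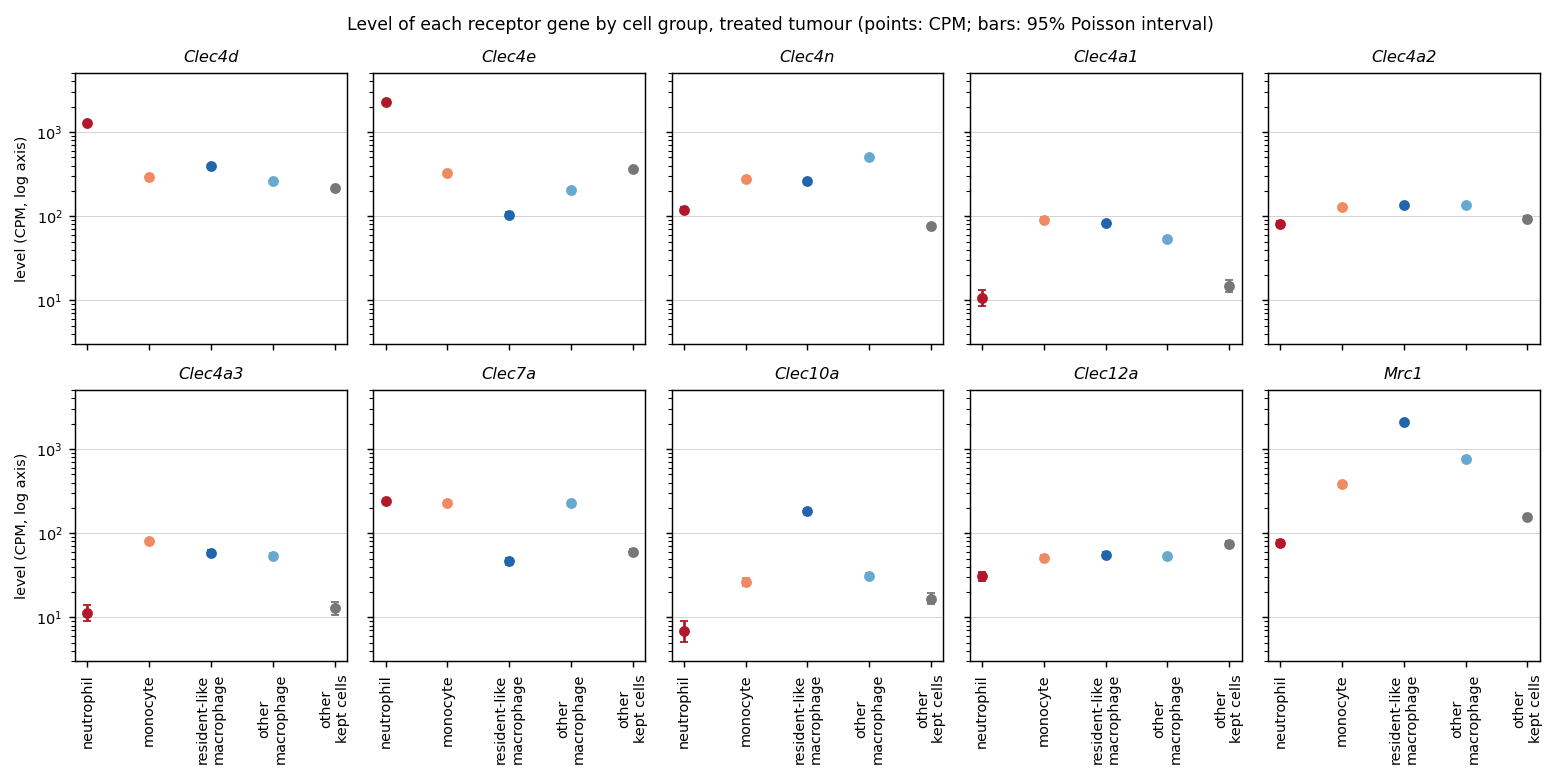
Level of each of the 10 receptor genes (CPM, log axis) in the 5 cell groups of the treated tumour, with points for the summed UMIs of a group and bars for 95% Poisson intervals. Clec4d and Clec4e stand highest in neutrophils at 1291 and 2307 CPM, Mrc1 and Clec10a in resident-like macrophages at 2076 and 183.2 CPM, and Clec4n in other macrophages at 509 CPM.

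Clec4e encodes Mincle, a receptor for mycobacterial glycolipids and for material from dying cells. Its level was 2307 CPM in neutrophils (2273 to 2342), 367 in other kept cells (355.3 to 379), 329.2 in monocytes (319.2 to 339.5), 205.4 in other macrophages (199.4 to 211.6) and 104.5 in resident-like macrophages (98.0 to 111.3). All steps of this order exceeded counting error, and the neutrophil level was 6.29 times the next one (6.07 to 6.52). In cleaned monocytes Clec4e was at 463.9 CPM (449.1 to 479), above the other kept cells. The typical neutrophil carried a median of 3 Clec4e UMIs, with 7 at the upper quartile and 46 in the highest cell, although neutrophils were the shallowest group with a median of 1698 UMIs.

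Clec4d encodes Mcl, the partner that brings Mincle to the cell surface. It stood at 1291 CPM in neutrophils (1265 to 1317), 395.8 in resident-like macrophages (383.1 to 408.9), 289.2 in monocytes (279.7 to 298.8), 261.9 in other macrophages (255.1 to 268.9) and 217.1 in other kept cells (208.1 to 226.3). Neutrophils were 3.26 times the next group (3.14 to 3.39). The partner genes parted in macrophages: Clec4d was 1.51 times higher in resident-like than in other macrophages (1.45 to 1.58), while Clec4e was at 0.509 of the level (0.474 to 0.546). In cleaned monocytes Clec4d was at 406.4 CPM (392.6 to 420.5).

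Clec4n encodes Dectin-2, a receptor for fungal mannans. It was highest in other macrophages at 509 CPM (499.5 to 518.7), then 277.7 in monocytes (268.5 to 287.2), 258.9 in resident-like macrophages (248.6 to 269.5), 120.2 in neutrophils (112.5 to 128.3) and 76.0 in other kept cells (70.8 to 81.6). Although next to Clec4d on the chromosome, it therefore had a different leading group. Cleaned monocytes held 390.1 CPM (376.6 to 404).

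Clec7a encodes Dectin-1, the receptor for fungal beta-glucans. Its level was 242.6 CPM in neutrophils (231.6 to 254), 228.6 in monocytes (220.3 to 237.2) and 228.3 in other macrophages (221.9 to 234.8). Neighbours among these 3 did not differ beyond counting error, and neutrophils were not compared directly with other macrophages. Other kept cells were at 60.1 CPM (55.4 to 65.0) and resident-like macrophages lowest at 46.5 (42.2 to 51.1), 0.204 of the level of other macrophages (0.184 to 0.225). Cleaned monocytes, at 310.1 CPM (298.1 to 322.5), stood above the neutrophils.

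Mrc1 encodes the mannose receptor. It was at 2076 CPM in resident-like macrophages (2047 to 2106), 762.3 in other macrophages (750.7 to 774.1), 388.1 in monocytes (377.2 to 399.3), 154.5 in other kept cells (147 to 162.4) and 76.1 in neutrophils (70.0 to 82.6). Each step of this order was 1.96 times or more. Cleaned monocytes, however, held 556 CPM of Mrc1, so the step from other macrophages to monocytes was smaller with them. A resident-like macrophage carried a median of 14 Mrc1 UMIs, against 3 in other macrophages and 0 in monocytes, neutrophils and other kept cells. The monocytes were uneven, with an upper quartile of 3 and a highest cell of 103 UMIs. Without the 5% of cells with the highest doublet scores the neutrophil level was 21.2 CPM in place of 76.1.

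Clec10a encodes Mgl1, a receptor for terminal galactose and N-acetylgalactosamine. It was at 183.2 CPM in resident-like macrophages (174.6 to 192.2), 31.1 in other macrophages (28.8 to 33.6), 26.2 in monocytes (23.5 to 29.3), 16.7 in other kept cells (14.2 to 19.4) and 6.91 in neutrophils (5.16 to 9.06). The resident-like level was 5.89 times the next (5.38 to 6.45). Cleaned monocytes held 31.4 CPM of Clec10a, near the level of other macrophages. Among the other kept cells, the 37 cells with dendritic cell genes held 118.6 CPM (84.7 to 161.5). Of the 50-base windows at the 3′ end of Clec10a transcripts, 13.8% also occur in its neighbour Mgl2. Reads could therefore be split or lost between them. Mgl2 ran the other way in macrophages, at 25.5 CPM in other and 2.50 in resident-like macrophages. The resident-like level of Mgl2 was 0.0979 of the other (0.0615 to 0.148). The part of split or lost reads in the Clec10a levels was not tested.

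Mrc1 and Clec10a also tracked the rule for the resident-like group within macrophages. Macrophages with 2 UMIs of Cd163, Folr2 and Lyve1, just outside the group, held 1168 CPM of Mrc1 and 74.1 CPM of Clec10a (324 cells). Those with 3 UMIs, just inside, held 1367 and 95.5 CPM (212 cells), so both genes were present just below the threshold and higher just above it. Clec4d and Clec4e were already high just below the neutrophil threshold and rose across it. Kept cells with 1 to 2% of UMIs in the neutrophil genes (358 cells) held 918.6 CPM of Clec4d and 1728 CPM of Clec4e. Those with 2 to 3% (325 cells) held 1256 and 2417 CPM, near the levels of the whole neutrophil group (1291 and 2307 CPM).

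Clec4a1, Clec4a2 and Clec4a3 belong to the dendritic cell immunoreceptor family. Clec4a1 was at 91.5 CPM in monocytes (86.2 to 97.0), 82.9 in resident-like macrophages (77.1 to 89.0), 53.6 in other macrophages (50.5 to 56.8), 14.8 in other kept cells (12.5 to 17.3) and 10.8 in neutrophils (8.55 to 13.4). Clec4a3 was at 80.0 CPM in monocytes (75.03 to 85.1), 58.8 in resident-like macrophages (54.0 to 64.0), 54.3 in other macrophages (51.2 to 57.5), 12.9 in other kept cells (10.8 to 15.3) and 11.3 in neutrophils (9.02 to 13.96). Both were thus low in neutrophils and present in each mononuclear group. In cleaned monocytes they reached 132 CPM (124.2 to 140.2) and 111.4 CPM (104.2 to 118.9). For Clec4a3 the resident-like and other macrophages did not differ beyond counting error, nor did the lowest pair.

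Clec4a2, the family member with an inhibitory tail, had the flattest profile of the 3. Other macrophages (136.9 CPM, 132 to 141.9), resident-like macrophages (134.8, 127.4 to 142.5) and monocytes (128.9, 122.6 to 135.4) did not differ beyond counting error between neighbours. Other kept cells were at 93.5 CPM (87.6 to 99.6) and neutrophils at 81.1 (74.7 to 87.7). In cleaned monocytes it was at 182.4 CPM (173.2 to 192). Of its 3′ windows, 8.96% are shared with Clec4a4 or Clec4b1, relatives on the same chromosome.

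Clec12a encodes an inhibitory receptor that binds uric acid crystals. It was highest in the other kept cells at 74.95 CPM (69.7 to 80.5), with resident-like macrophages at 54.9 (50.2 to 59.9), other macrophages at 54.2 (51.1 to 57.4) and monocytes at 51.2 (47.3 to 55.3) not differing beyond counting error. Neutrophils were lowest at 30.7 CPM (26.9 to 34.9). In cleaned monocytes it was at 73.9 CPM (68.1 to 80.1), level with the other kept cells.

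The share of cells with at least 1 UMI depends on depth, and median depth ran from 1698 UMIs in neutrophils to 8681.5 in resident-like macrophages. Each cell was therefore also thinned to 1000 UMIs, which left out 531 neutrophils, 5 monocytes, 1 resident-like macrophage, 133 other macrophages and 245 other kept cells. T cells, which should lack these receptors, served as the background (220 cells of the other kept group, median 2940.5 UMIs). In them the thinned share was 4.19% for Clec4e, 3.72% for Mrc1 and 1.86% for Clec4d, and under 1% for each of the other 7 genes.

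Clec4e was detected in 87.3% of neutrophils at full depth and in 77.4% after thinning (75.9 to 78.9, exact binomial interval). The thinned share was 28.9% in monocytes, 26.4% in other kept cells, 16.7% in other macrophages and 9.38% in resident-like macrophages. For Clec4d, depth hid the contrast: 82.6% of neutrophils and 81.6% of resident-like macrophages had a UMI at full depth, but 68.8% (67.1 to 70.5) and 28.6% (25.9 to 31.5) after thinning. The remaining groups lay between 23.1 and 24.3%. Clec4n was found after thinning in 31.7% of other macrophages (30.0 to 33.5), 20.2% of monocytes, 19.0% of resident-like macrophages and 8.10% of neutrophils. Clec7a was found in 22.3% of neutrophils (20.9 to 23.9), 18.6% of monocytes, 14.1% of other macrophages and 3.26% of resident-like macrophages.

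Mrc1 had a UMI in 97.1% of resident-like macrophages at full depth and in 76.8% after thinning (74.1 to 79.4), against 44.6% of other macrophages, 20.6% of monocytes, 8.06% of other kept cells and 2.44% of neutrophils. The neutrophil share was not above the 3.72% of T cells (1.62 to 7.20), although the neutrophil level of 76.1 CPM was above that of T cells, 21.3 CPM (12.2 to 34.6). Clec10a was found in 48.0% of resident-like macrophages at full depth and 14.4% after thinning (12.3 to 16.7), with at most 4.43% in any other group. Thinned shares of Clec4a1 and Clec4a3 in neutrophils were 0.636 and 0.603%, at the T cell level. In monocytes they were 11.7 and 9.98%. Clec4a2 stood between 11.8 and 12.98% in the 3 mononuclear groups and at 6.09% in neutrophils. Clec12a stood between 4.84 and 5.36% in those 3 groups, at 3.55% in other kept cells and at 1.88% in neutrophils. The share in other kept cells did not lead here although their level did.

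**Figure D2:**
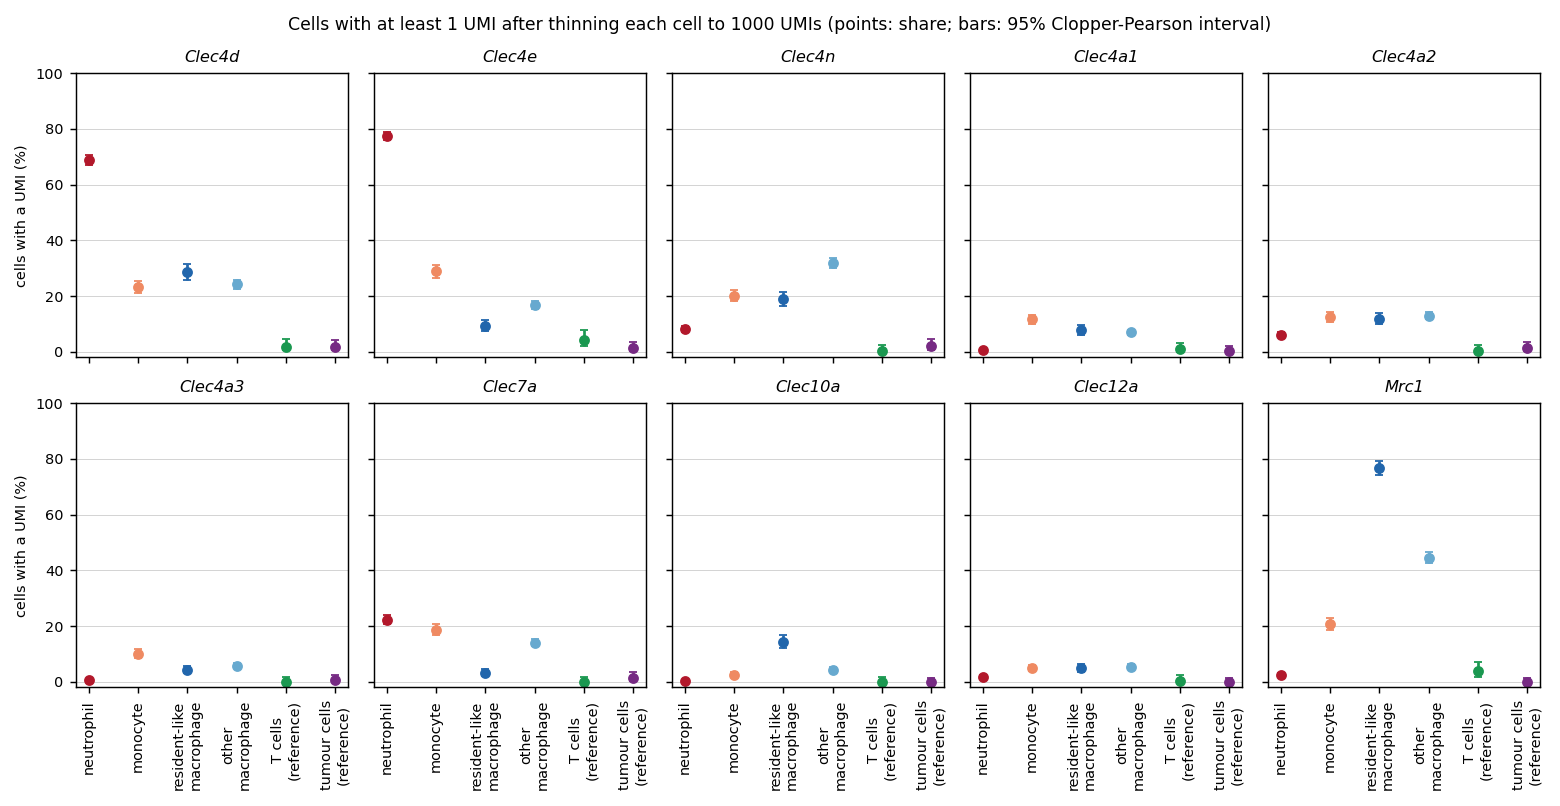
Share of cells (%) with at least 1 UMI of each receptor gene after thinning every cell to 1000 UMIs, in the 4 myeloid groups and in T and tumour epithelial reference cells, with 95% Clopper-Pearson intervals. Clec4d and Clec4e reach 68.8 and 77.4% of neutrophils and Mrc1 76.8% of resident-like macrophages, while no share in T cells exceeds 4.19%.

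In some pairs a receptor was found more often in cells with the other than in cells without it, and in others the intervals overlapped. After thinning, Clec4e had a UMI in 81.9% of neutrophils with a Clec4d UMI (80.2 to 83.6, 2056 cells) and in 67.5% of those without (64.3 to 70.5, 931 cells). Clec4n was found in 8.61% of neutrophils with Clec4d (7.43 to 9.91) and 6.98% without (5.43 to 8.81), which overlap. In other macrophages Clec10a was found in 6.51% of cells with Mrc1 (5.18 to 8.05) and 2.75% without (1.98 to 3.72), while in resident-like macrophages the shares were 15.6% (13.1 to 18.3) and 10.6% (7.004 to 15.3), with overlap. Among monocytes Clec4a3 was found in 17.3% of cells with Clec4a1 (12.02 to 23.8) and 9.01% without (7.51 to 10.7). The group mixes cells that have and lack all of these genes, and the part of that mixture in the monocyte values was not tested.

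To read the levels against the transcriptome, each group was set against all other kept cells, and a gene was called when its CPM ratio reached 2-fold with at least 50 UMIs over both sides. All 10 receptor genes and 14287 genes in all met that minimum. In neutrophils 2 receptor genes were called higher, where 9.28% of all genes were, and 5 lower, where 60.1% of all genes were. The higher ones were Clec4e, 9.32 times the other cells (9.11 to 9.54), and Clec4d, 4.56 times (4.45 to 4.68). The lower ones were Mrc1, Clec10a, Clec4a1, Clec4a3 and Clec4n, with ratios from 0.0967 to 0.365. The median log2 ratio was -1.18 for the receptors and -1.43 for all genes.

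In resident-like macrophages 2 receptor genes were called higher (4.12% of all genes) and 2 lower (20.6% of all genes). Clec10a was at 7.78 times the other cells (7.22 to 8.39) and Mrc1 at 4.59 times (4.50 to 4.68), with Clec4e at 0.182 and Clec7a at 0.236. Against other macrophages alone, 2 were called higher (3.21% of 11645 genes), again Clec10a and Mrc1, and 1 lower (5.32%), Clec7a. In other macrophages 1 was called higher (2.06% of all genes), Clec4n at 2.67 times (2.59 to 2.75), and 1 lower (18.5%), Clec4e at 0.309. In monocytes 2 were called higher (8.2% of all genes), Clec4a1 at 2.06 times (1.92 to 2.22) and Clec4a3 at 2.01 (1.86 to 2.17), and 2 lower (8.91%), Clec10a and Mrc1. All 4 of these lay at the threshold. In cleaned monocytes 3 were called higher (1.48% of all genes), namely Clec4a1 at 3.15 times (2.92 to 3.39), Clec4a3 at 2.92 (2.69 to 3.16) and Clec7a at 2.02 (1.93 to 2.11), and 0 lower (22.2%). In other kept cells 0 were called higher (21.5% of all genes) and 7 lower (7.27%), with Clec4e, Clec4a2 and Clec12a the exceptions.

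Ratios of the signalling genes ran from 0.252 to 4.596 over the 5 groups, and those of the receptors from 0.0967 to 9.32. Of 14 signalling genes listed, 2 were called higher in neutrophils (9.28% of all genes) and 3 lower (60.1% of all genes). The lower calls were thus a smaller share than among all genes. Syk was at 611.4 CPM, 2.39 times the other cells (2.31 to 2.47), and Hcst, an adaptor of activating receptors, at 104.2 CPM and 4.596 times (4.195 to 5.03). Malt1, the protease of the Card9 complex, was at 186 CPM (ratio 0.428), the phospholipase gene Plcg2 at 30.7 CPM (0.494) and the phosphatase gene Ptpn11 at 15.5 CPM (0.370). Fcer1g, the shared adaptor, was at 2128 CPM in neutrophils and between 1189 and 1491 CPM in the other 3 myeloid groups. Tyrobp, the adaptor of many other myeloid receptors, ran from 1869 CPM in neutrophils to 961.3 in monocytes. Card9 was scarce, between 11.4 and 17.3 CPM in the 4 myeloid groups.

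Malt1 was at 547 CPM in monocytes, 535 in other macrophages and 114.6 in resident-like macrophages. In the resident-like group it was the 1 signalling gene called, lower at 0.252 of the other cells (0.237 to 0.268), where 20.6% of all genes were called lower. The same group had the lowest levels of Clec7a and Clec4e. In monocytes 0 of the 14 were called (8.2% of all genes higher, 8.91% lower), and likewise 0 in other macrophages (2.06% higher, 18.5% lower). The kinase gene Prkcd, the exchange factor gene Vav1, Bcl10 and the phosphatase genes Ptpn6 and Inpp5d were called in no myeloid group. In other kept cells 4 were called lower (7.27% of all genes): Fcer1g, Tyrobp, Card9 and Vav1.

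**Figure D3:**
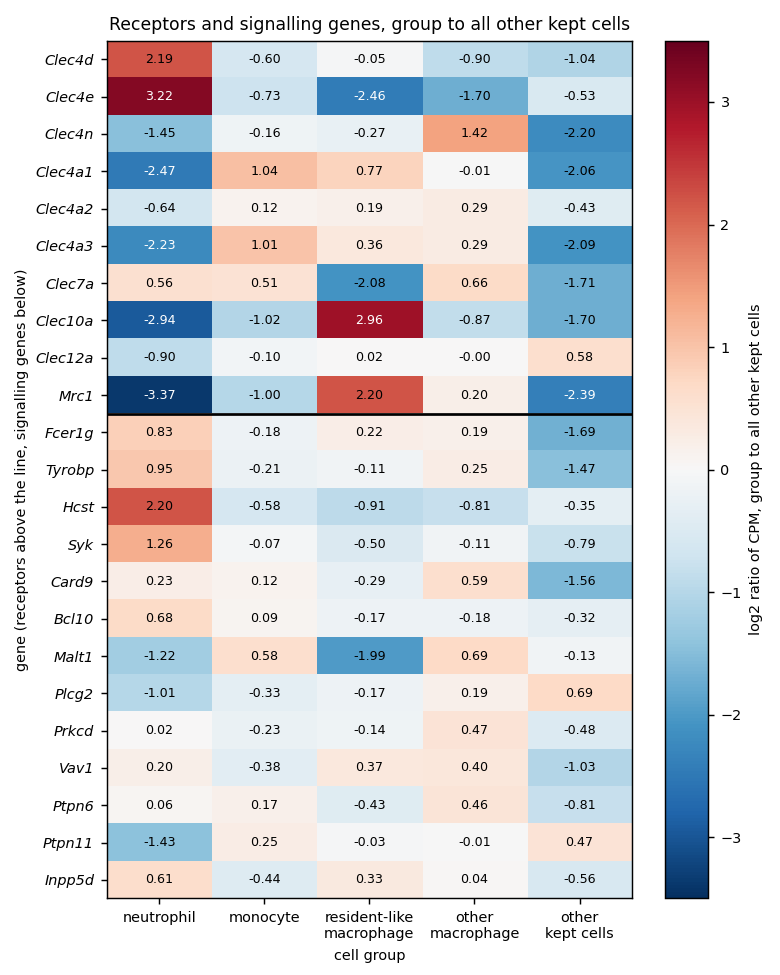
Log2 ratio of CPM between each cell group (columns) and all other kept cells, for the 10 receptor genes above the line and signalling genes below it, with the value printed in each cell. The receptor rows run from -3.37 (Mrc1 in neutrophils) to 3.22 (Clec4e in neutrophils), while most values of the signalling genes lie within 1 of 0.

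Of 38 further lectin genes listed, 9 reached 50 CPM in a group and 29 did not. Clec5a, a Tyrobp-coupled receptor, was between 56.6 and 61.8 CPM in neutrophils, monocytes and other macrophages and at 20.1 in resident-like macrophages. Olr1, the receptor for oxidised lipoprotein next to Clec7a, was at 93.0 CPM in monocytes, 81.4 in neutrophils and 36.7 in resident-like macrophages. Cd93 (354.6 CPM), Colec12 (293 CPM) and Cd302 (102 CPM), genes of uptake and adhesion, were highest in resident-like macrophages, as Mrc1 was. Thbd, thrombomodulin, was highest in monocytes at 60.1 CPM. Cleaned monocytes held 131.1 CPM of Olr1, 78.5 of Clec5a and 57.4 of Thbd. Mrc2, the collagen uptake receptor of mesenchymal cells, was at 55.3 CPM in the monocyte group that held fibroblast-gene cells and at most 10.1 in the others. Cd69, an activation marker, was highest in other kept cells at 69.1 CPM.

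Neutrophils were split by whether they had more UMIs of Retnlg, a gene of blood neutrophils, or of Ccl3, a chemokine gene. In the 1305 cells with more Ccl3, Clec4e was at 3226 CPM (3156 to 3296), against 1583 CPM (1545 to 1622) in the 1575 with more Retnlg, a ratio of 2.04 (1.97 to 2.11). Clec4n was at 215.1 against 55.1 CPM, a ratio of 3.91 (3.34 to 4.58). These 2 receptor genes were called higher, where 6.1% of 6473 genes were, and 1 lower, where 6.03% were. Clec12a was the lower one, at 10.99 against 46.7 CPM, a ratio of 0.235 (0.152 to 0.351).

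Clec4d was higher in the Ccl3 cells by 1.75 times (1.68 to 1.83) and Clec7a by 1.48 times (1.34 to 1.65), both short of 2-fold. Clec4a2 was at 53.4 against 105.2 CPM (0.507, 0.415 to 0.617), also short of it. After thinning, Clec4n was found in 12.2% of the Ccl3 cells and 4.36% of the Retnlg cells, and Clec12a in 0.726 and 3.02%. The macrophage genes of the rule took 0.221% of UMIs in the Ccl3 cells and 0.255% in the Retnlg cells, and the part of macrophage RNA in the Clec4n difference was not tested. Malt1 was the 1 signalling gene called, at 317.5 against 111.1 CPM, a ratio of 2.86, where 6.1% of all tested genes were called higher. The 638 neutrophils with equal UMIs of both were between for Clec4d (1553 CPM), Clec4e (2972 CPM), Clec4n (145.9 CPM) and Clec12a (14.3 CPM), and above both for Clec7a (377.2 CPM, 338.4 to 419.3).

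In the 47 neutrophils with at least 0.5% of UMIs in the interferon-induced genes Isg15, Rsad2, Ifit1 and Ifit3, Clec7a was at 502.2 CPM (361.9 to 678.8), against 239.7 (228.7 to 251.1) in the rest. Clec4d (1387 CPM) and Clec4e (2595 CPM) had intervals that reached the levels of the rest. Clec12a and Mrc1 had 0 UMIs there, with an upper interval bound of 44.1 CPM. In the other neutrophils Clec12a was at 31.0 CPM, within that bound, and Mrc1 at 77.0 CPM (70.8 to 83.6), above it. Over all neutrophils, however, the Mrc1 UMIs lay in only 164 of 3518 cells, with up to 44 in a single cell. The bound does not cover such clumping, so the absence of Mrc1 from 47 cells cannot be read as a difference. Without the highest doublet scores the neutrophil level of Mrc1 was 21.2 CPM, within the bound. Clec7a reached 21 UMIs in a single neutrophil, so its interval in the 47 cells has the same limit. This split was not set against all genes.

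Resident-like and other macrophages were pooled and split by other genes. Resident-like cells were at 5.89 times the level of other macrophages for Clec10a, 2.72 times for Mrc1 and 0.204 for Clec7a. The part of the mix of these groups in the splits given here and below was not tested. In the 1068 with at least 0.1% of UMIs in Arg1, the arginine-degrading enzyme gene, 0 receptor genes were called higher (1.62% of 11645 genes) and 2 lower (3.77%). Clec10a was at 26.0 against 100.1 CPM, a ratio of 0.260 (0.227 to 0.296), and Clec4a3 at 32.3 against 66.4 CPM (0.487, 0.429 to 0.551). Clec4a1 was at 0.519 (0.462 to 0.582) and Mrc1 at 0.680 (0.664 to 0.697). Clec7a and Clec4n stood the other way, at 1.80 (1.71 to 1.90) and 1.53 (1.47 to 1.58), while Clec4d and Clec4e did not differ beyond counting error, both at 1.01.

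**Figure D4:**
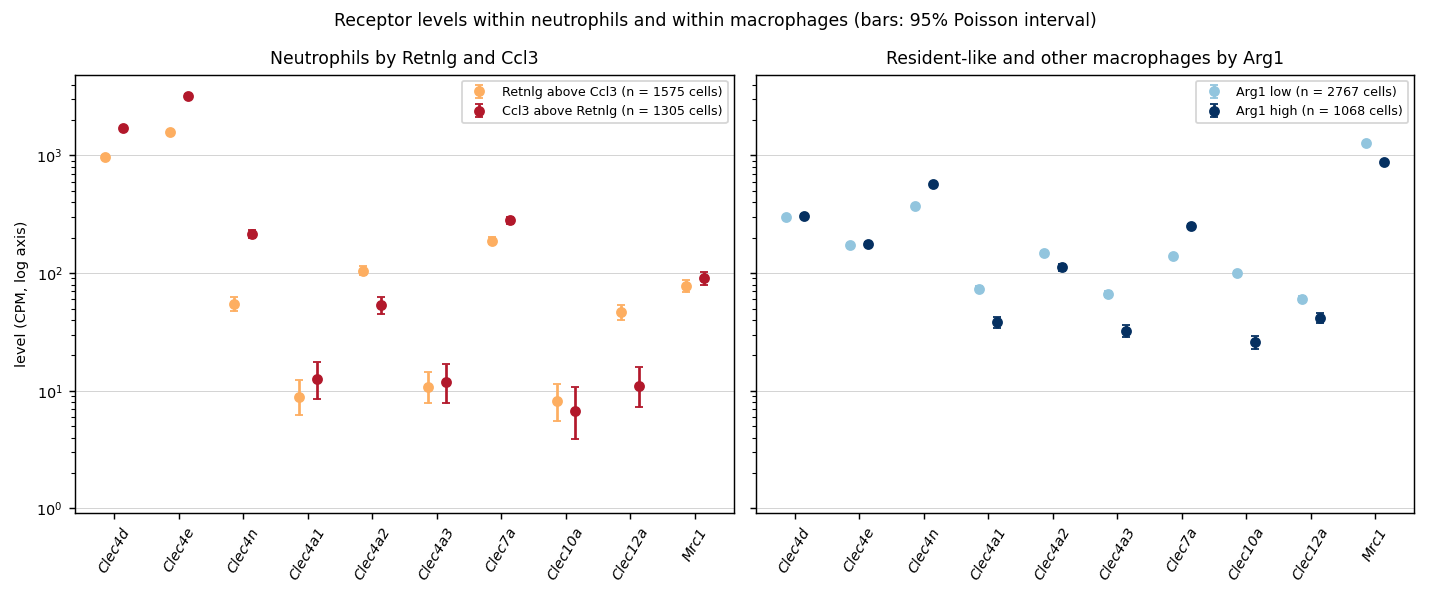
Levels of the 10 receptor genes (CPM, log axis, 95% Poisson intervals) in neutrophils with more Retnlg or more Ccl3 UMIs (left) and in macrophages with low or high Arg1 (right). In the left panel Clec4n is higher with more Ccl3 at 215.1 against 55.1 CPM and Clec12a lower at 10.99 against 46.7, and in the right panel Clec10a is at 26.0 CPM with high and 100.1 with low Arg1.

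In the 54 macrophages with at least 0.2% of UMIs in Cxcl9 and Cxcl10, chemokine genes induced by interferon gamma, 1 receptor gene was called higher (7.1% of 11645 genes) and 2 lower (15.8%). Clec12a was at 139.6 against 52.7 CPM, a ratio of 2.65 (2.10 to 3.30). Mrc1 was at 289.2 against 1175 CPM (0.246, 0.211 to 0.286) and Clec10a at 16.6 against 78.0 CPM (0.213, 0.102 to 0.393). Clec7a was at 1.69 times (1.44 to 1.96). In the 425 macrophages with 2 or more UMIs of the cycling genes Mki67 and Top2a, Clec4d was at 182 CPM (170.8 to 193.7) against 328.2 (321.2 to 335.3) in the rest. Clec10a was at 41.6 (36.4 to 47.4) against 84.4 (80.9 to 88.1). The cycling cells were deeper, with a median of 13208 against 6648 UMIs, which CPM does not carry but a UMI threshold does.

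The other kept cells held 23.1% of all Clec12a UMIs, and these were unevenly spread. Among the other kept cells without markers of a reference class, 88 had at least 0.5% of their UMIs in Ctsk and Acp5, genes of a collagen-cutting protease and an acid phosphatase known from osteoclasts. The threshold was that used for macrophages, and it was applied to these cells after Clec12a had been seen to be highest in their group. They held 402.5 CPM of Clec12a (366.2 to 441.3) and 425.6 CPM of Clec4a2 (388.3 to 465.5). Against all the rest of the kept cells these are ratios of 8.44 (7.63 to 9.33) and 3.70 (3.37 to 4.06). The 88 cells held 13.7% of all Clec12a UMIs and 6.53% of all Clec4a2 UMIs of the kept cells.

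The other 8 receptor genes were all called lower in these cells, where 32.6% of 14287 genes were, and 2 were called higher, where 11.9% were. The 8 ratios ran from 0.0324 (Clec4a1) to 0.349 (Clec4a3), with Clec4n at 10.7 against 308.9 CPM and Mrc1 at 55.2 against 711.3 CPM. The cells thus carried both genes with an inhibitory tail and little of the rest. Of the 14 signalling genes 0 were called, with Tyrobp at 1224 CPM (ratio 1.14), Syk at 277.8 CPM (0.925) and Ptpn6, the phosphatase gene, at 120.2 CPM (1.35). After thinning, Clec12a was found in 29.6% of the cells (20.3 to 40.2) and Clec4a2 in 28.4% (19.3 to 39.0), above every one of the 5 groups. The cells were deep, with a median of 13134 UMIs.

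Both genes followed the Ctsk and Acp5 share. In 35 such cells at 0.1 to 0.5% Clec12a was at 216.7 CPM (164.1 to 280.7) and Clec4a2 at 239.5 (184 to 306.4). In 1099 under 0.1% they were at 67.1 (58.3 to 76.8) and 98.1 (87.4 to 109.7). Among macrophages 13 cells passed 0.5%, and there Clec12a was at 600 CPM (476.5 to 745.7) and Clec4a2 at 407.4 CPM (306.9 to 530.3), against 52.0 and 135 CPM in the remaining macrophages. The 1099 cells under 0.1% were shallow, with a median of 1691 UMIs, and held 1092 CPM of Clec4e (1055 to 1129) and 628.3 CPM of Clec4d (600.8 to 656.7). The T, B and tumour epithelial cells of the same group held 62.5, 23.6 and 22.3 CPM of Clec4e, so its high rank among the other kept cells was not shared by those cells. The neutrophil genes of the rule took 0.309% of UMIs in the 1099 cells and 10.89% in neutrophils. In the reference classes they took at most 0.181%, in dendritic cells. The part of neutrophils or of their RNA in the 1099 cells was not tested.

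**Figure D5:**
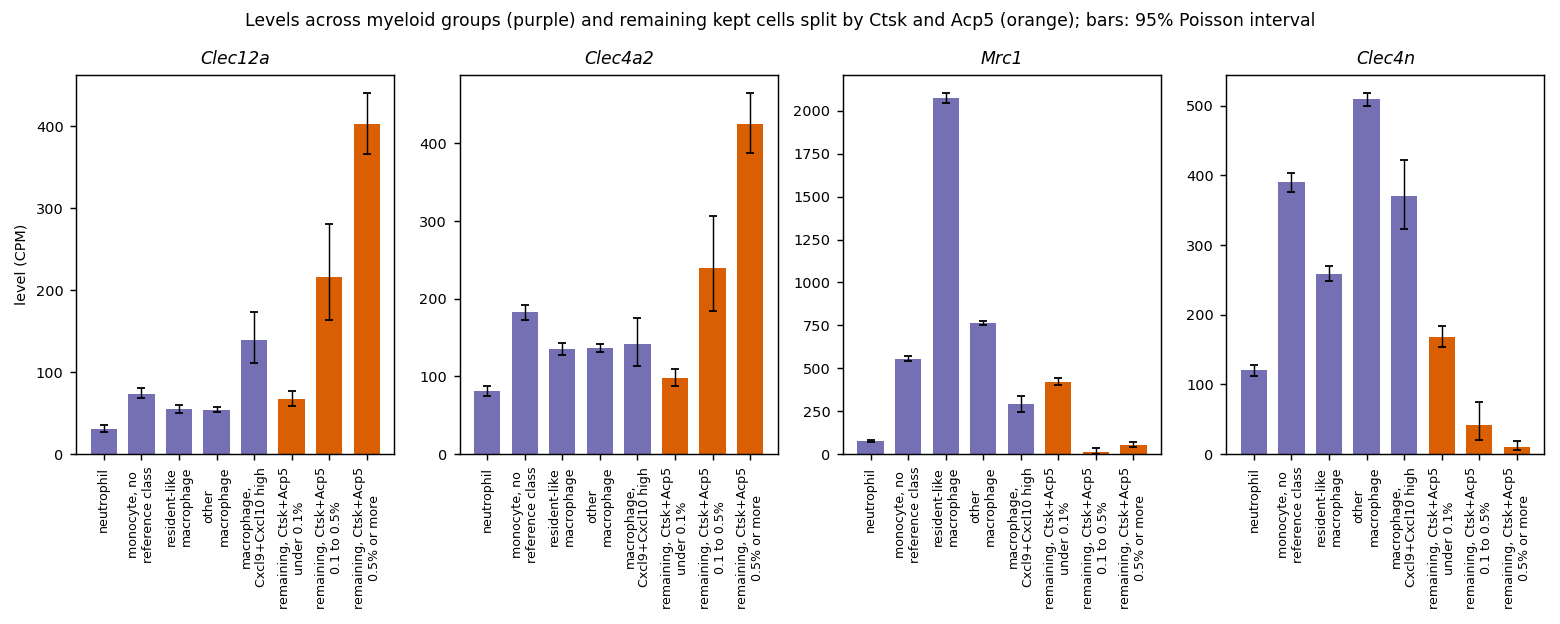
Levels (CPM, bars from 0, 95% Poisson intervals) of 4 receptor genes in myeloid groups (purple) and in other kept cells without a reference class split by their Ctsk and Acp5 share (orange). Clec12a and Clec4a2 reach 402.5 and 425.6 CPM in the cells at 0.5% or more, where Mrc1 (55.2 CPM) and Clec4n (10.7 CPM) are low.

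For each receptor, the genes with the most similar profile were sought among 11148 genes with at least 200 UMIs, over 11 points (the 5 groups and 6 reference populations, which share 1 library and are not independent). By Pearson correlation of log2(CPM + 1), Clec4d was most like C5ar1 (r = 0.981), the receptor for complement C5a, then Arg2 and Ccr1. Clec4e was most like the neutrophil chemokine gene Cxcl2 (0.971), then Fbxl5 and Gm56581. Clec4n was most like Lgals3 (0.970), the galectin-3 gene, then Slc8b1 and Fes. Clec7a was most like the glycolytic gene Ldha (0.969), then its neighbour Olr1 (0.966) and Bcl2a1a.

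Clec4a1 was most like the Fc receptor gene Fcgr1 (0.961), then Kcnk13 and Ms4a6c, and Clec4a3 most like Ms4a6d (0.973), then Capza2 and Ctsc. Clec4a2 was most like Spi1 (0.949), which encodes PU.1, then Ptprj and Cfp. Mrc1 was most like the macrophage gene Ms4a7 (0.977), then Kcnk13 and Ms4a6d. Clec10a (Gpr85, 0.945, then Tlr5 and Cfp) and Clec12a (Rnf180, 0.923, then Ptprj and Apba1) had the least close matches. Several genes stood among the 3 nearest of more than 1 receptor. Ptprj, a receptor-type phosphatase gene, did so for Clec4a2 and Clec12a, and Cfp for Clec4a2 and Clec10a. Kcnk13 was shared by Clec4a1 and Mrc1, and Ms4a6d by Clec4a3 and Mrc1.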

How the data were processed

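The deposited matrix held unnormalised UMI counts of each gene in each barcode, which the authors had produced with Cell Ranger (version 8.0.1, per the file headers); the submitters' processing notes also name STAR. The authors' deposited cell list gave each kept barcode its library (a label, no measurement). Neither labels nor headers state the genome build or the cell filters. The matrix was taken as the treated library because it held 10835 of 10835 barcodes listed as treated and 37 of 11643 listed as control.

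UMIs were summed per cell group with Python 3.11.15, numpy 2.4.6 and scipy 1.17.1 and given as CPM with exact 95% Poisson intervals. Ratios have the exact conditional Poisson interval, shares of cells the exact Clopper-Pearson interval. Median log2 ratios used 0.5 added UMIs. Thinning drew 1000 UMIs per cell with a fixed seed. Scrublet in scanpy 1.11.5 marked 0 of 10835 cells by its own threshold and so gave no usable calls. Removing the 5% highest scores was an alternative, and whether these scores mark doublets was not tested. Free RNA was not subtracted. The ratio step was tested on simulated data.

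Named were all 10 receptors, the signalling genes, further lectins at 50 CPM or more in a group and the 3 most alike genes per receptor; others were named after their values were seen. A gene of the signalling list and a gene of the lectin list are counted but not reported here. The members and lists were chosen with earlier results of these data known. Shared 3′ windows of 50 bases were sought in the last 500 bases of GENCODE transcripts. Alternatives were all barcodes, other thresholds, per-cell means, doublet removal, and 20 UMIs or 4-fold for calls.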

Additional observations from a re-analysis of the deposited data

Results flagged for a closer look

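The 1474 barcodes that the authors left out, with a median of 24257 UMIs, also carried the receptors. Levels there were 66.7 CPM for Clec4d, 73.4 for Clec4e, 122.6 for Clec4n, 7.87 for Clec4a1, 63.0 for Clec4a2, 11.2 for Clec4a3, 57.6 for Clec7a, 13.3 for Clec10a, 37.8 for Clec12a and 205.2 for Mrc1. They drew attention because they lie outside the cells used above and exceed the limit that a count of 0 allows. Sorted by the same rules, the 111 left-out resident-like macrophage barcodes held 1277 CPM of Mrc1 (1235 to 1319) and 111 CPM of Clec10a (99.1 to 123.9), and the 53 neutrophil barcodes 565.2 CPM of Clec4e (480.2 to 660.8). Clec7a was at 116.9 CPM (104.7 to 130.2) in the left-out resident-like barcodes, against 46.5 CPM in the kept ones. Whether these barcodes are single cells was not tested.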

How the results depend on the processing

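No paired analysis was possible because only 1 library was analysed. Over all barcodes of the matrix, the number of receptor genes highest in a group was 0 for monocytes, 6 for resident-like macrophages, 1 for other macrophages and 0 for other kept cells: Clec4a1, Clec4a2, Clec4a3 and Clec12a moved to resident-like macrophages. With the mean over cells of the CPM it was 0 for other kept cells, as Clec12a was highest in other macrophages, and Clec4a2 in monocytes. Without cells of a reference class, added after seeing the data, it was 4 for monocytes and 1 for other macrophages. With the neutrophil threshold at 5%, Clec7a was highest in monocytes. Clec4d, Clec4e, Clec4n, Clec10a and Mrc1 had the same leading group in all 9 alternatives.

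At 4-fold, higher and lower calls together, 5936 of 14287 genes tested were called for neutrophils and 1099 for monocytes. There were 1825 for resident-like macrophages, 1688 for other macrophages and 1518 for other kept cells. At 2-fold these counts were 9911, 2444, 3529, 2943 and 4108. Of the 10 receptor genes, 0 were called at 4-fold for monocytes, 0 for other macrophages and 4 for other kept cells. Resident-like macrophages kept all their receptor calls, and neutrophils all but Clec4n (ratio 0.365). Without the highest doublet scores, neutrophil levels of Mrc1 were 21.2 CPM, of Clec10a 1.80, of Clec4a1 4.8 and of Clec4a3 7.35. Over all barcodes, monocyte levels were 56.0 CPM for Clec4a1, 49.3 for Clec4a3, 188.7 for Clec4d, 16.8 for Clec10a and 250.4 for Mrc1. The mean over cells gave 39.6 CPM of Clec12a and 1096 CPM of Clec4e in other kept cells. Neutrophils were the shallowest group, and thinning left out 531 of them.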
